A study of Homo sapiens with 4 samples.

Results

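The genes described here are 30 established transcriptional targets of the tumour suppressor p53, taken by symbol from the 28278 genes of the deposited table. Per the labels, all cells were HepG2, a human hepatocellular carcinoma line, infected with lentiviruses that carried short hairpin RNAs and then treated for 48 hours with Sorafenib at 10 µM, which inhibits several kinases, in DMEM with 10% serum. The Control group carried the Control shRNA and had 1 library, the ATF7IP knockdown group carried ATF7IP shRNA-1 or ATF7IP shRNA-2 and had 1 library of each, and the SETDB1 knockdown group carried a SETDB1 shRNA and had 1 library. ATF7IP is a nuclear partner of SETDB1, an enzyme that methylates histone H3 at lysine 9 and so silences chromatin. Every group had sorafenib, so no value below compares treated with untreated cells, and each hairpin stands for 1 infected cell population.

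p53 is a transcription factor that is held at a low protein level by the ubiquitin ligase MDM2 and accumulates when DNA damage, oxidative stress or disturbed ribosome synthesis blocks that ligase. It then binds paired copies of a short DNA element and switches on genes that stop the cell cycle, repair DNA, alter redox metabolism or trigger cell death, among them MDM2 itself, which closes a negative feedback loop. In liver cells this programme restrains proliferation after damage, and its loss is a frequent event in hepatocellular carcinoma. The activity of p53 is set mainly at the protein level, which RNA counts do not measure.

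Of the 30 genes, 28 passed the filter on low counts and were tested. SPATA18, which encodes a factor of mitochondrial quality control, was at 0 counts in all 4 libraries. TP53INP1, which encodes a p53-induced nuclear protein of cell death and autophagy, had 0, 9, 8 and 0 counts, given in the order Control library, hairpin 1 and hairpin 2 against ATF7IP, and lastly SETDB1 knockdown, which is at or under the detection floor of 12 counts in each. Sets of 4 values below keep that order of libraries. Levels are CPM, counts scaled to a common library size, on library sizes scaled by the trimmed mean of M values (TMM). They are not corrected for gene length, so they are compared between libraries and not between genes.

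Library totals ranged from 70236882 to 73791097 counts. The targeted genes followed the labels, with ATF7IP at 59.1, 18.3, 18.8 and 97.8 CPM and SETDB1 at 47.7, 52.1, 46.7 and 11.99 CPM. The defining markers of the labelled cell type were absent: of 20 hepatocyte markers, 7 were at 0 in all 4 libraries (ALB, AFP, TTR, APOB, APOH, FGA and FOXA2) and 13 were at or under the floor in all 4. Their summed level was 13.6 to 20.5 CPM, most of it from FOXA1, at 8.83 to 16.1 CPM. The only other marker with a mean of at least 1 CPM was ASGR1, at 1.81, 4.25, 2.81 and 3.05 CPM. Summed levels of marker lists, here and below, cover every gene of the list and use library totals without TMM. The data therefore go against the hepatocyte identity in the label, and the cells are called here the cells labelled HepG2. Whether they carry an intact p53 protein was not measured. The share of ribosomal RNA was lowest in Control, at 0.3245%, and highest in SETDB1 knockdown, at 0.7209%.

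RefSeq (GRCh38.p14, the hg38 assembly) gave promoter sequences for 24 of the 30 genes, all but PHLDA3, TNFRSF10A, TNFRSF10B, TP53INP1, GADD45A and RRM2B. The first listed start was used for the 8 genes with more than 1. In the 250 bases before the start, a search for the p53 half-site, the 10-base unit that p53 binds in pairs, found a perfect match in PLK2, FDXR and AEN. That is 3 of 24 genes (12.5%), against 5.53% of 27305 promoters and 4.5% of the 10231 promoters of genes whose mean reached 1 CPM. The pattern reads the same on both strands. A pair of half-sites with no spacer was in 0 of 24 genes, against 0.0195% of the promoters of genes whose mean reached 1 CPM. Pairs with a spacer were not searched. The GC box GGGCGG, searched on both strands, was in 20 of 24 (83.3%), against 67.8% of the promoters of genes with at least 1 CPM, and no half-site match overlapped one. The median G+C content was 70.2% in the 24 promoters, against 65.2% in those of genes with at least 1 CPM. Its part in the GC box share was not tested. The 5 sequences below are shown because PLK2, PLK3 and ABHD4 were at least 1.5-fold below Control in both ATF7IP hairpins, and because PLK2, FDXR and AEN held the matches. Capitals mark the half-site match, and each sequence runs 5′ to 3′ on the strand of the gene and ends at the base before the start. A match describes the letters only, and no match says only that these letters are not in this window.
PLK2, chr5:58460087-58460336, minus strand: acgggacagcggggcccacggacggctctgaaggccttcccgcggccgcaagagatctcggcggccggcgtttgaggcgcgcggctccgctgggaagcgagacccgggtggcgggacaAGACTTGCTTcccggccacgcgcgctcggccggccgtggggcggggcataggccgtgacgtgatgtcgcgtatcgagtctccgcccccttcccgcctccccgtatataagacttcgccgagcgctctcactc
PLK3, chr1:44800127-44800376, plus strand: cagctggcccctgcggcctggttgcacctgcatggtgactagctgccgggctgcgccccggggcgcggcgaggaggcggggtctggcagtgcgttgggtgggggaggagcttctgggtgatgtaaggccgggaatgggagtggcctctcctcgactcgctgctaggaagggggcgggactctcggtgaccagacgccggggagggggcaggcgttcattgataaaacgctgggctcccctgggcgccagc
ABHD4, chr14:22598050-22598299, plus strand: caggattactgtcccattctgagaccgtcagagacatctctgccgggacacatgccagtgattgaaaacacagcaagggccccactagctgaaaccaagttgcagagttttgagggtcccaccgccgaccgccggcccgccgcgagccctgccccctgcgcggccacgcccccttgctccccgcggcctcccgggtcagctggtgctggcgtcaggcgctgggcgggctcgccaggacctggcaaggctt
FDXR, chr17:74872995-74873244, minus strand: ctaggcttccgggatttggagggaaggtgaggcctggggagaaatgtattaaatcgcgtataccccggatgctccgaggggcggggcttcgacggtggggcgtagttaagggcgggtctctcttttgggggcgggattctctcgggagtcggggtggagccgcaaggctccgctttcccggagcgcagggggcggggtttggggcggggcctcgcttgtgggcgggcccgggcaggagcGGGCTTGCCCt
AEN, chr15:88621090-88621339, plus strand: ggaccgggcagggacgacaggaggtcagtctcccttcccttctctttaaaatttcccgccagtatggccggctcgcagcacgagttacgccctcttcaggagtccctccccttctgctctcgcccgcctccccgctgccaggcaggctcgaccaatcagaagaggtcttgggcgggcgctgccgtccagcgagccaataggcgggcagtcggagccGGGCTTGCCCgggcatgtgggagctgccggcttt

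The match lay 132 to 123 bases before the start in PLK2, 34 to 25 in AEN and 11 to 2 in FDXR. The letters matched in FDXR and AEN were the same. PLK2 and FDXR were below Control in all 3 knockdown libraries, as were 15 of 28 members (53.6%), against 23.0% of all genes. PLK3 and ABHD4, which held no match, were among the 15. Between libraries, PLK2 was lowest in the ATF7IP hairpins and FDXR in SETDB1 knockdown. AEN differed from both and was within 1.11-fold of Control in every library.

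In these libraries most p53 targets lay below Control. In ATF7IP hairpin 1, 24 of 28 were lower than in Control, with a median log2 difference of −0.48, and in SETDB1 knockdown 22 of 28, with a median of −0.30. In ATF7IP hairpin 2 the count was 18 of 28 and the median −0.07. Over the 13132 genes whose mean reached 1 CPM each of these medians was 0.00. In bulk RNA, fewer cells of a type and less RNA per cell cannot be told apart. All 3 knockdown libraries were below Control for 15 members (53.6%), against 23.0% of all genes, and above it for 1, TNFRSF10A, against 23.0% of all genes. These counts share the 1 Control library, and no member passed the edgeR test in any of the 3 comparisons described below.

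**Figure D1:**
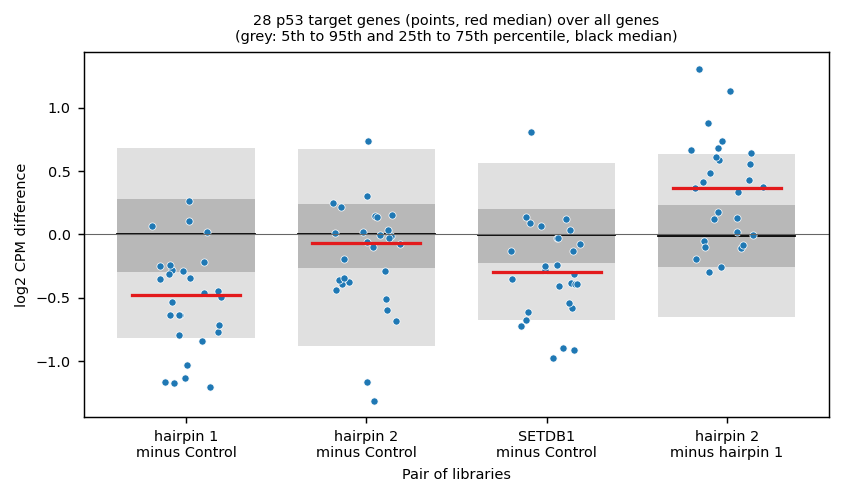
Log2 CPM differences between pairs of libraries for the 28 p53 target genes (points, red line at their median) over the 5th to 95th and 25th to 75th percentiles of all 13132 genes (grey, black line at the median). The red line is at −0.48 in hairpin 1, −0.07 in hairpin 2 and −0.30 in SETDB1 knockdown, and at 0.37 for hairpin 2 against hairpin 1.

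The genes that feed back on p53 were led by MDM2, the ubiquitin ligase that marks p53 for destruction (chromosome 12, 68808172 to 68850686, overlapping the carboxypeptidase M gene). MDM2 was at 334, 163, 254 and 224 CPM. Control was the highest of the 4 and hairpin 1 the lowest, 2.05-fold below it. PPM1D, a phosphatase that reverses damage signalling to p53, was at 34.2, 25.1, 32.4 and 31.3 CPM. CCNG1, which encodes cyclin G1 and recruits a phosphatase to MDM2, was at 167, 140, 206 and 134 CPM. Hairpin 2 was thus above Control for CCNG1 while hairpin 1 and SETDB1 knockdown were below it. MDM4, a p53-binding relative of MDM2 that is no member, was at 71.8, 67.5, 74.9 and 60.4 CPM.

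The growth arrest genes held PLK2, the member furthest from Control in ATF7IP knockdown. PLK2, a polo-like kinase of centriole duplication and stress checkpoints (chromosome 5, 58453982 to 58460086), was at 97.6, 42.2, 39.2 and 82.6 CPM. Both ATF7IP hairpins were low, 2.31-fold and 2.49-fold below Control, and SETDB1 knockdown was 1.18-fold below it. PLK3, a related stress kinase (chromosome 1, 44800377 to 44805990, overlapping DYNLT4), was at 23.6, 15.2, 14.6 and 12.7 CPM. All 3 knockdown libraries were at least 1.55-fold below Control for PLK3.

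CDKN1A encodes p21, the inhibitor of cyclin-dependent kinases that carries out p53-driven arrest (chromosome 6, 36676463 to 36687332, overlapping the noncoding RNA gene DINOL). It was at 420, 247, 328 and 346 CPM, again with Control highest and hairpin 1 lowest. GADD45A, a stress sensor that binds PCNA and p21, was at 437, 282, 307 and 399 CPM, so both ATF7IP hairpins were below SETDB1 knockdown and Control. BTG2, an antiproliferative mRNA decay factor, was at 70.8, 48.9, 78.4 and 75.2 CPM, and here hairpin 1 alone was below Control.

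**Figure D2:**
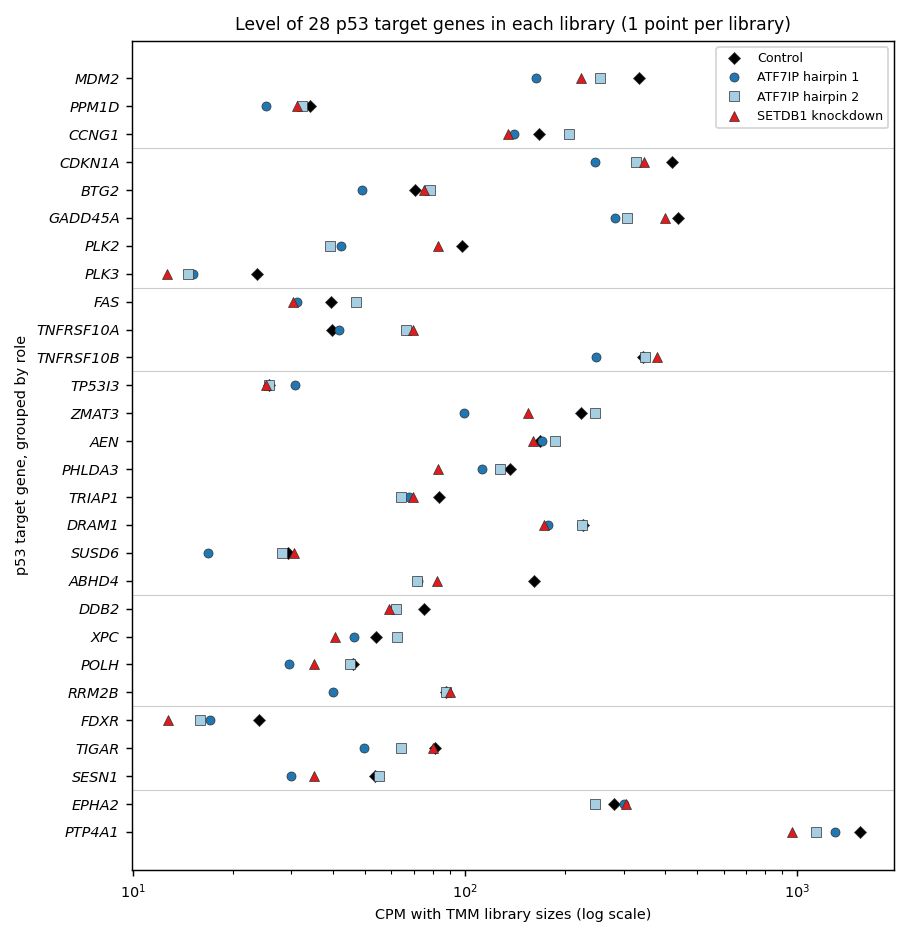
CPM (log axis) of the 28 tested p53 target genes in each of the 4 libraries, 1 point per library, grouped by role. Control (black) is the highest point for 15 of the 28 genes, for example MDM2 at 334 against 163 to 254, and the lowest for TNFRSF10A. Levels are not corrected for gene length.

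The death receptors included the 1 member above Control in all 3 knockdown libraries. TNFRSF10A, the gene of the TRAIL receptor DR4, was at 39.8, 41.8, 66.4 and 69.8 CPM. Hairpin 2 and SETDB1 knockdown were 1.67-fold and 1.75-fold above Control and hairpin 1 was level with it at 1.05-fold. TNFRSF10B, the gene of the second TRAIL receptor DR5, was at 343, 249, 347 and 377 CPM, with hairpin 1 the low library. FAS, the gene of the receptor of Fas ligand, was at 39.6, 31.2, 46.9 and 30.3 CPM. FAS overlaps ACTA2 and FAS-AS1, and TNFRSF10B overlaps RHOBTB2 and an antisense gene, so shared fragments make these values uncertain. No source used here says that counting used strand, and 17 of the 30 members overlap another gene.

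Among genes of cell death and survival, ABHD4, a lipid hydrolase linked to death of detached cells (chromosome 14, 22598300 to 22612963, with no overlapping gene), was at 161, 71.95, 71.9 and 82.1 CPM. The 3 knockdown libraries lay close together, 1.97-fold to 2.25-fold below Control. ZMAT3, a zinc finger protein that binds RNA (chromosome 3, 179017223 to 179072513), was at 224, 99.1, 246 and 154 CPM. Its 2 ATF7IP hairpins stood on opposite sides of Control and 2.48-fold apart, the widest gap between hairpins of any member. PHLDA3, an inhibitor of AKT signalling (chromosome 1, 201464278 to 201469188), was at 137, 112, 127 and 82.8 CPM, lowest in SETDB1 knockdown. SUSD6, a membrane protein that promotes p53-dependent death, was at 29.2, 16.8, 28.1 and 30.5 CPM, with hairpin 1 the low library.

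The other 4 genes of that role varied less. DRAM1, a lysosomal regulator of autophagy, was at 227, 178, 225 and 173 CPM. TRIAP1, an inhibitor of apoptosis that acts in mitochondria, was at 83.2, 67.9, 64.0 and 69.9 CPM, so Control was the highest of the 4 by a narrow margin. AEN, a nuclease of apoptosis, was at 169, 171, 187 and 160 CPM. TP53I3, a quinone oxidoreductase, was at 25.6, 30.7, 25.7 and 25.1 CPM. TP53I3 was thus 1.20-fold above Control in hairpin 1 and level with it elsewhere.

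DNA repair genes were mostly a little lower than in Control. DDB2, a sensor of ultraviolet damage, was at 75.5, 60.9, 61.8 and 59.2 CPM, so all 3 knockdown libraries were below Control by 1.22-fold to 1.27-fold. XPC, the damage recognition factor of nucleotide excision repair, was at 53.8, 46.3, 62.5 and 40.5 CPM, and POLH, a polymerase that copies past ultraviolet damage, at 45.96, 29.5, 45.1 and 35.0 CPM. Both were lower in hairpin 1 and SETDB1 knockdown than in Control, and hairpin 2 was above Control for XPC. RRM2B, the p53-induced subunit of ribonucleotide reductase that supplies nucleotides for repair, was at 87.8, 40.0, 87.6 and 90.2 CPM. Hairpin 1 stood apart for RRM2B, 2.19-fold below Control, while hairpin 2 and SETDB1 knockdown were within 1.03-fold of Control.

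In redox and metabolism, FDXR, the mitochondrial ferredoxin reductase (chromosome 17, 74862497 to 74872994), was at 24.05, 17.0, 15.9 and 12.8 CPM. All 3 knockdown libraries were below Control for FDXR, by 1.41-fold, 1.51-fold and 1.88-fold. TIGAR, a phosphatase that slows glycolysis and spares NADPH, was at 81.3, 49.5, 64.1 and 79.8 CPM, with both hairpins below Control and SETDB1 knockdown level with it. SESN1, a stress-induced inhibitor of mTORC1, was at 53.7, 29.9, 54.9 and 35.1 CPM, where hairpin 1 and SETDB1 knockdown were low and hairpin 2 was level with Control. Of the signalling genes, PTP4A1, a prenylated phosphatase (chromosome 6, 63516440 to 63583588, overlapping LGSN), was at 1542, 1303, 1136 and 966 CPM, and the receptor tyrosine kinase gene EPHA2 was at 281, 302, 245 and 305 CPM.

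**Figure D3:**
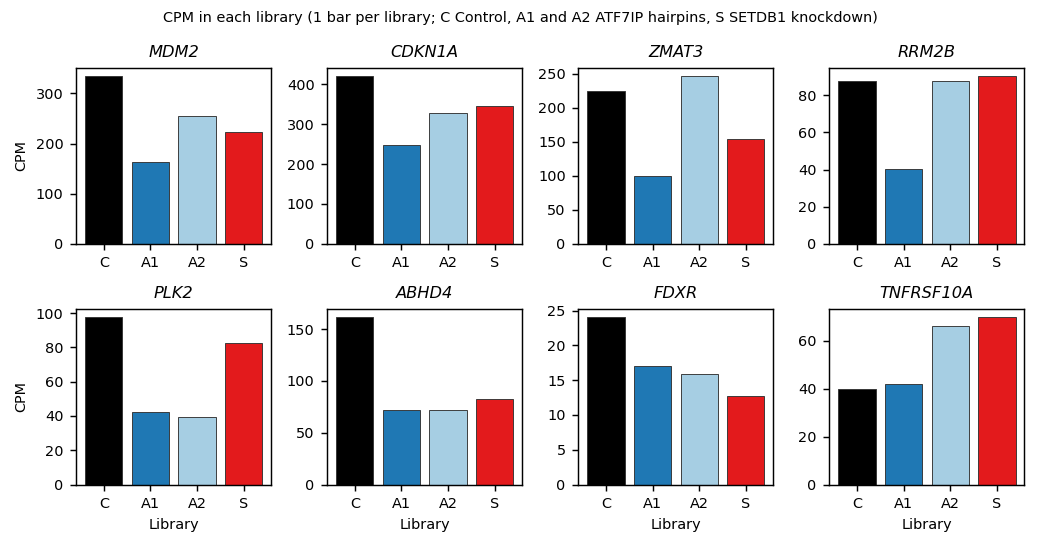
CPM of 8 members in each library, 1 bar per library, axes from 0. MDM2, CDKN1A and RRM2B are lowest in ATF7IP hairpin 1, PLK2 and ABHD4 are low in both hairpins, FDXR is lowest in SETDB1 knockdown, and TNFRSF10A is higher in hairpin 2 and SETDB1 knockdown than in Control.

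ATF7IP knockdown against Control asks what differs when ATF7IP is depleted under sorafenib. PLK2, ABHD4 and PLK3 were at least 1.5-fold below Control in both hairpins, which is 3 of 28 members (10.7%) against 5.48% of all genes, and 0 members were 1.5-fold above it in both, against 3.42% of all genes. Both hairpins were below Control by any amount for 17 of 28 (60.7%), against 35.0% of all genes. The edgeR quasi-likelihood test called 0 of the 28 at an adjusted p under 0.05, where it called 0.0769% of all 16900 genes tested, and 3 members had an unadjusted p under 0.05 (PLK2, PLK3 and ABHD4), against 8.941% of all genes. DESeq2 called 2 of 28 lower, PLK2 and ABHD4, where it called 1.16% of genes.

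The fitted log2 fold change of PLK2 was −1.26 ± 0.23 (SE of the fit, edgeR adjusted p = 0.142), and over the alternatives its adjusted p ranged from 0.00283 with DESeq2 to 0.648. For ABHD4 it was −1.17 ± 0.23 (edgeR adjusted p = 0.159, range 0.00533 to 0.648). PLK3 stood at −0.66 ± 0.27 (edgeR adjusted p = 0.511, range 0.471 to 0.672). The 2 genes most used as readouts of p53 had wider relative errors, MDM2 with −0.68 ± 0.31 (edgeR adjusted p = 0.575, range 0.513 to 0.736) and CDKN1A with −0.55 ± 0.28 (edgeR adjusted p = 0.646, range 0.625 to 0.772). The median over the 28 members was −0.32, against 0.02 over all genes tested.

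The spread behind these p-values comes from the 2 ATF7IP hairpins alone (1 residual degree of freedom), and Control and SETDB1 knockdown are assumed to vary like them. Markers of fibroblasts were also lower in this comparison: the 7 of 11 whose mean reached 1 CPM were all below Control in both hairpins. All 11 summed to 514 CPM in Control, 279.9 and 264 in the hairpins and 319.5 in SETDB1 knockdown, on library totals without TMM. The part of these markers in the result was not tested. COL3A1, a fibrillar collagen, had the highest level of them, at 335.5, 190.5, 154.5 and 154.8 CPM. LUM, a matrix proteoglycan, was at 81.6, 26.0, 25.9 and 92.5 CPM, low in both ATF7IP hairpins (edgeR adjusted p = 0.0571) and called higher in SETDB1 than in ATF7IP knockdown, at 1.83 ± 0.23 on the log2 scale (edgeR adjusted p = 0.0247). DCN, PDGFRB, COL1A1, FAP and ACTA2 were the other 5 that reached 1 CPM, while PDGFRA, POSTN and COL1A2 were at or under the floor in all 4 libraries. COL6A3 was above the floor but under 1 CPM, at 0.216, 0.213, 0.248 and 0.773 CPM. It was thus not lower in hairpin 2, and it was highest in SETDB1 knockdown. Endothelial markers summed to 1.01 to 1.83 CPM in all libraries, with KDR and EMCN at 0, and blood cell markers to 22.6, 24.9, 28.9 and 42.3 CPM, nearly all from CD68, with CD3E and HBB at 0.

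**Figure D4:**
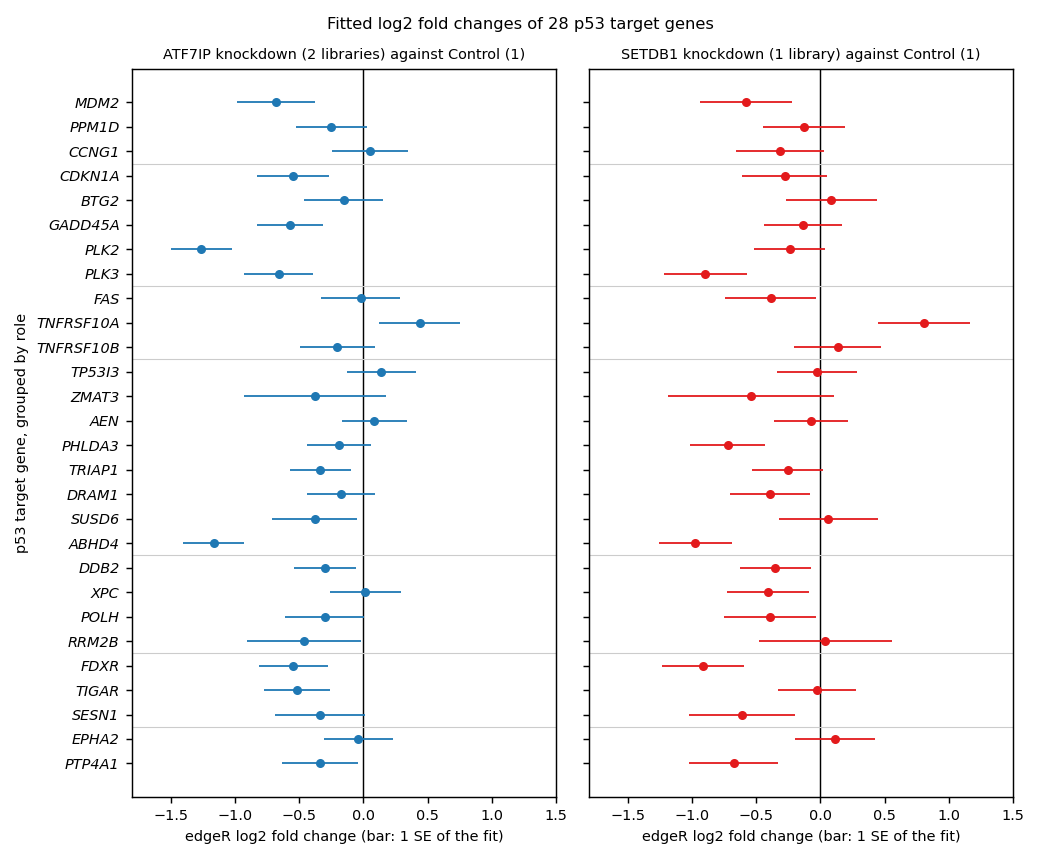
Fitted log2 fold changes with 1 SE of the edgeR fit for the 28 members, in ATF7IP knockdown (left, 2 libraries against 1) and SETDB1 knockdown (right, 1 against 1). PLK2 at −1.26 and ABHD4 at −1.17 lie furthest from 0 on the left, and ABHD4 at −0.97 on the right; ZMAT3 has the widest bar on both sides, and none of the points passed the adjusted threshold.

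The 2 ATF7IP hairpins differed on these genes, although ATF7IP itself was equally low in both, at 18.3 and 18.8 CPM. Hairpin 1 held 12 of 28 members at least 1.5-fold below Control (42.9%), against 10.7% of all genes, and hairpin 2 held 4 of 28 (14.3%), against 10.4%. Compared directly, 9 of 28 members (32.1%) were at least 1.5-fold higher in hairpin 2 than in hairpin 1, against 6.02% of all genes, and 0 were that much lower, against 6.59%. The 9 were MDM2, BTG2, FAS, TNFRSF10A, ZMAT3, SUSD6, POLH, RRM2B and SESN1. The median log2 difference of hairpin 2 from hairpin 1 was 0.37 over the members and −0.02 over all genes. With 1 library per hairpin there is no test of this difference, and the hairpin, the cell population and the library cannot be told apart.

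ZMAT3 and RRM2B carried the largest gaps, with log2 differences of 1.31 and 1.13. Because edgeR takes its spread from this same pair of libraries, they also had the largest SEs in ATF7IP knockdown, 0.55 for ZMAT3 and 0.44 for RRM2B, and 0.65 and 0.52 in SETDB1 knockdown. PLK2, PLK3, ABHD4, DDB2, TRIAP1 and FDXR were the other extreme, with hairpins within 1.08-fold of each other and SEs of 0.23 to 0.27. Counting error is small beside the gaps of ZMAT3 and RRM2B. The lowest count of a tested member was 901, about 225 fragments at an assumed 4 counts per fragment, a counting error of 6.66%. That count was of PLK3 in SETDB1 knockdown. The hairpins of PLK3 were 1.04-fold apart, a gap no larger than such an error.

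**Figure D5:**
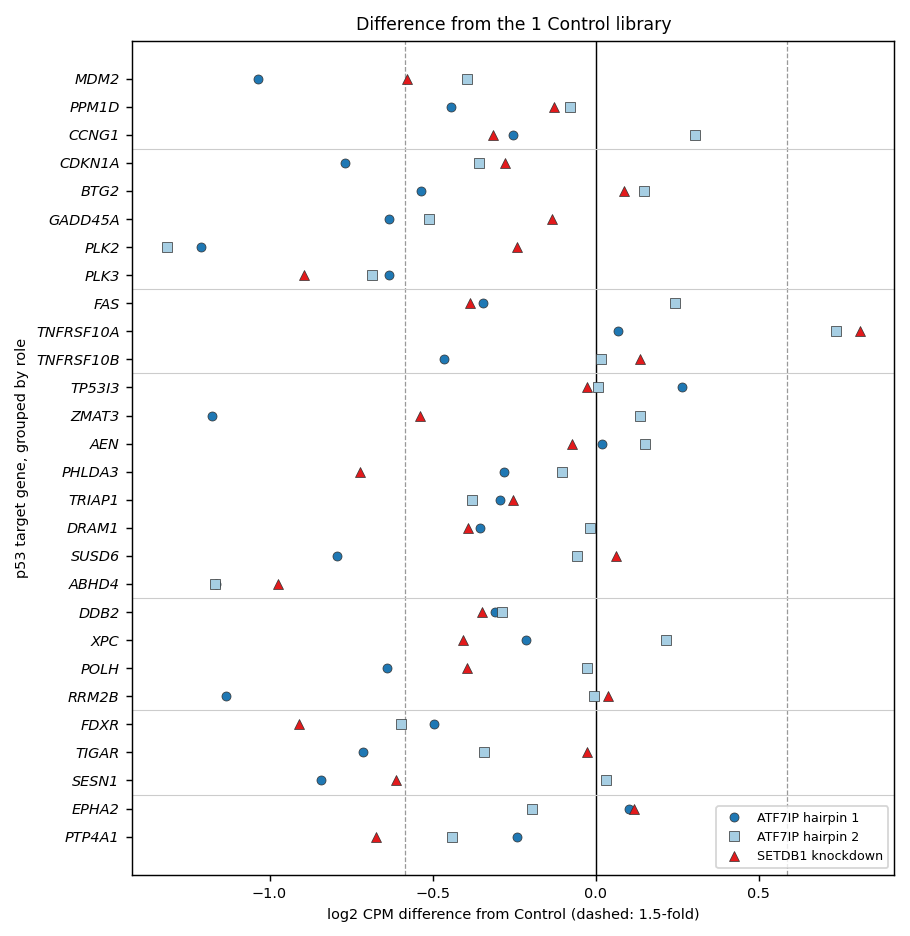
Log2 CPM difference of each knockdown library from the 1 Control library for the 28 members, grouped by role; dashed lines mark 1.5-fold. Hairpin 1 (dark blue) passes the left line for 12 genes and hairpin 2 (light blue) for 4, of which PLK2, PLK3 and ABHD4 are shared, and SETDB1 knockdown (red) passes it for 6.

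SETDB1 knockdown against Control asks what differs when SETDB1 itself is depleted. ABHD4, FDXR, PLK3, PHLDA3, PTP4A1 and SESN1 were at least 1.5-fold lower, 6 of 28 members (21.4%) against 6.9% of all genes, and TNFRSF10A was at least 1.5-fold higher, 1 of 28 against 4.65%. The edgeR test called 0 of 28, where it called 0.071% of all genes, and 4 members had an unadjusted p under 0.05 (PLK3, PHLDA3, ABHD4 and FDXR), against 4.71% of all genes. DESeq2 called 0 as well, where it called 0.278%, with 6 members at an unadjusted p under 0.05, against 3.095% of all genes. The median over the members was −0.30, against 0.00 over all genes tested.

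ABHD4 was furthest below Control, at −0.97 ± 0.28 on the log2 scale (edgeR adjusted p = 0.824, range over the alternatives 0.354 to 1). FDXR followed with −0.91 ± 0.32 (edgeR adjusted p = 0.99) and PLK3 with −0.90 ± 0.32 (edgeR adjusted p = 0.99). PHLDA3 was at −0.72 ± 0.29 and PTP4A1 at −0.67 ± 0.35, and TNFRSF10A at 0.81 ± 0.36, each with an edgeR adjusted p of 1. MDM2 was at −0.58 ± 0.36 and CDKN1A at −0.28 ± 0.33, both with an edgeR adjusted p of 1. This comparison has 1 library on each side, and ribosomal RNA took its highest share in SETDB1 knockdown, whose part in the result was not tested.

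Set directly against ATF7IP knockdown, SETDB1 knockdown had 14 of 28 members higher and 14 lower, with a median log2 fold change of 0.02. PLK2 was furthest apart, 1.02 ± 0.24 higher in SETDB1 knockdown (edgeR adjusted p = 0.218, range over the alternatives 0.0307 with DESeq2 to 0.597). PHLDA3 was at the other end, with −0.53 ± 0.26 (edgeR adjusted p = 0.545). edgeR called 0 of 28 members, against 0.166% of all genes, with PLK2 the 1 member of 28 at an unadjusted p under 0.05, against 9.876% of all genes. DESeq2 called 1, PLK2, against 1.21% of genes.

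Other genes of the pathway were read from lists of which edgeR called 0 genes in any of the 3 comparisons. Of 20 genes of the p53 regulatory circuit, 19 had a mean of at least 1 CPM. They did not lean to either side: 4 were below Control in both hairpins and 3 above, where 35.0% of all genes were below it in both. TP73, a p53 relative, was at 0.431, 1.42, 1.39 and 1.64 CPM (edgeR adjusted p = 0.353 in ATF7IP knockdown). SIRT1, a deacetylase of p53, was at 65.9, 45.9, 45.6 and 48.4 CPM, and HIPK2, a kinase that activates p53, at 38.5, 23.7, 31.5 and 55.7 CPM. HIPK2 was thus below Control in both hairpins and above it in SETDB1 knockdown.

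A further 50 p53 targets outside the member list included 46 with a mean of at least 1 CPM. Of these, 35 were below Control in hairpin 1, 26 in hairpin 2 and 32 in SETDB1 knockdown. Above Control were 11, 20 and 14, where the shares of all genes above it were 49.98%, 50.03% and 49.38%. Hairpin 2 was thus nearest to the share of all genes. The median log2 differences were −0.23, −0.05 and −0.15, the same order of libraries as the members in smaller size. The list was chosen with earlier results of these data known, so it is no independent check of the members. TNFRSF10D, a decoy receptor for TRAIL, was at 71.6, 28.2, 42.2 and 58.1 CPM (edgeR adjusted p = 0.3 in ATF7IP knockdown), and TNFRSF10C, another decoy receptor, at 1.91, 2.61, 5.65 and 1.81 CPM. The stem cell factor gene KITLG was at 101.2, 46.5, 58.5 and 98.8 CPM, and TP53I11 at 15.5, 10.4, 5.91 and 13.7 CPM. The decoy receptors thus differed from each other, with TNFRSF10D below and TNFRSF10C above Control in both hairpins.

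All 28 listed cell cycle genes that p53 represses through p21 had a mean of at least 1 CPM. Hairpin 1 was above Control for 20 of 28, with a median log2 difference of 0.18. Hairpin 2 was above it for 10 and SETDB1 knockdown for 8, with medians of −0.17 and −0.16. Over all genes, the shares above Control were 49.98%, 50.03% and 49.38%. CDC25A, a phosphatase that starts DNA replication, was at 80.7, 152, 150.1 and 99.4 CPM (edgeR adjusted p = 0.309 in ATF7IP knockdown), and BUB1, a mitotic checkpoint kinase, at 144, 122, 95.7 and 119 CPM. RRM2, the replicative ribonucleotide reductase subunit, was at 192, 247, 255.5 and 254 CPM, and the replication licensing gene MCM3 at 364, 300.1, 284 and 302 CPM. Over the list, 7 genes were above Control in both hairpins and 5 below, where 35.0% of all genes were below it in both.

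Stress targets of ATF4 and CHOP, a programme that can also be active in stressed cells, had 6 of 14 genes below Control in both hairpins and 4 above. The share of all genes below Control in both hairpins was 35.0%. SLC7A11, the cystine importer, was at 313, 392, 530 and 498 CPM, and TRIB3, a pseudokinase induced by amino acid stress, at 209.5, 294, 285 and 203 CPM. DDIT4, an inhibitor of mTORC1, was at 398, 319.6, 246 and 320.4 CPM, and DDIT3, which encodes CHOP, at 55.7, 43.6, 38.05 and 55.8 CPM. The median log2 differences of this list were 0.05, −0.16 and 0.01 in hairpin 1, hairpin 2 and SETDB1 knockdown.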

How the data were processed

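The authors deposited 1 table of estimated counts by gene symbol, with 1 column for each of the 4 libraries; its values are whole numbers that were not normalized. Per the submitters' processing notes, the tools were StringTie 2.2.1, HISAT2 2.2.1 and DESeq2 1.34.0, with hg38 as the build and no role given, and the annotation, counting procedure and strand setting are not given in the sources used here. Control had 489 genes at a count of 4, against 288 at 3 and 265 at 5, so about 4 counts per fragment were assumed, and the floor was 3 fragments (12 counts). The floor covers counting error only, while the SEs of the fit also hold the spread between the 2 ATF7IP hairpins.

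The members and lists were chosen with earlier results of these data known. The whole table was fitted in 3 groups with edgeR 4.0.16 in R 4.3.3 (TMM, filterByExpr with a minimum count of 10, 16900 genes, robust estimateDisp, robust glmQLFit, glmQLFTest), after testing on simulated data, with Benjamini-Hochberg adjustment over every gene tested. The simulated counts had a smaller spread than these data, so they do not show how often the test finds or misses changes here. The biological coefficient of variation was 0.237 and the median prior degrees of freedom 8.09. Replicates share a group by label only, so p-values measure the spread between 2 hairpin populations. Per-library differences used log2 CPM with a prior count of 2, and the size rule took at least 1.5-fold with a mean of at least 1 CPM. Full statistics were given for MDM2, CDKN1A, members past 1.5-fold in both hairpins and the 6 furthest in SETDB1 knockdown; from each pathway list, up to 4 genes that lay on the same side of Control in both hairpins, those with the largest fold change. Other genes are named with values where a result turns on them. Some genes that the rule names are not reported here. Alternatives were DESeq2 size factors, library totals, no filter, DESeq2 1.42.0, limma-trend (limma 3.58.1), other folds and prior counts, and leaving out libraries.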

Additional observations from a re-analysis of the deposited data

How the results depend on the processing

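The count of p53 targets called was 0 in each comparison under edgeR with TMM, with DESeq2 size factors, without a filter on low counts and under limma-trend, and in ATF7IP knockdown also without the SETDB1 library. The DESeq2 Wald test gave 2 in ATF7IP knockdown against Control (PLK2, at −1.26 on the log2 scale, and ABHD4, with −1.17) and 1 in SETDB1 against ATF7IP knockdown (PLK2), and the cause was not tested. The count at least 1.5-fold from Control in ATF7IP knockdown was 3, and with 1 hairpin left out it was 5 (without hairpin 1) and 12 (without hairpin 2), since 1 library then has to pass in place of 2. The median over the members was −0.07 without hairpin 1 and −0.49 without hairpin 2, so the size of the shift in ATF7IP knockdown depends on hairpin 1. At 2-fold in place of 1.5-fold, ATF7IP knockdown kept 2 members and SETDB1 knockdown had 0 in place of 7. With DESeq2 size factors and with library totals, the median was −0.319 and −0.299 in ATF7IP knockdown. In SETDB1 knockdown these medians were −0.289 and −0.311. The moves were less than 0.29, the SD between the 2 hairpins' medians, which is a wide margin beside medians of this size. A limit of at least 5 CPM removed no tested member, so it could not move the medians. Fold changes were recomputed for 9 members (MDM2, CDKN1A, PLK2, PLK3, TNFRSF10A, PHLDA3, ABHD4, FDXR and PTP4A1), and none of the 9 changed direction. For members whose hairpins lay on opposite sides of Control, such as ZMAT3, BTG2 and CCNG1, the direction in ATF7IP knockdown depends on the hairpin. Leaving out an ATF7IP hairpin leaves no residual degrees of freedom, so those are values with no test, and in SETDB1 knockdown neither library can be left out. No paired analysis was possible because the labels give no pairing and Control and SETDB1 knockdown had 1 library each.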
